A study of Mus musculus with 4 samples.

Results

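The quantity described here is the difference between the hypertonic responses of mouse embryonic fibroblasts of 2 genotypes, taken gene by gene. For each gene the response of a genotype was its log2 signal in hypertonic medium minus its log2 signal in isotonic medium, and the wild-type response was subtracted from the response of the cells labelled as NFAT5 knockout. A negative difference of responses therefore means that the knockout-labelled response lay below the wild-type response, and a difference of -1 means that the ratio of hypertonic to isotonic signal was 2-fold smaller in the knockout-labelled cells. Genes were taken from probe sets that the platform annotation gives to a single gene, with the brightest probe set where a gene had several. On each array the median signal of the single-gene probe sets served as a dim limit, and a gene was kept when at least 1 of its 4 signals exceeded it. In all, 10542 of 19938 genes were kept. The difference itself was not used in this choice. Of the kept genes 9217 were above the dim limit on all 4 arrays, and a gene kept through 1 array alone tends to differ because of that array.

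The wild-type cells were fibroblasts grown from mouse embryos, and the other cells were embryonic fibroblasts labelled as lacking NFAT5. Each genotype was held for 20 h either in isotonic medium, whose osmolality the labels do not state, or in medium brought to 450 mosmol/kg with NaCl. The cells had not been synchronised. For each of the 4 combinations, 4 samples were pooled and read on 1 Affymetrix Mouse Gene 1.0 ST array, so no spread between replicates was seen, no test could be made, and the small number of arrays limits the precision of every value. All 4 arrays enter each difference of responses. Whether the 2 genotypes came from littermates, which part of Nfat5 was deleted, and how many embryos each culture came from are not stated in the labels.

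NFAT5, or TonEBP, belongs to the family of Rel transcription factors, with the NFAT and NF-kappaB proteins, and gathers in the nucleus of cells in hypertonic medium. It activates genes for transporters and enzymes that load the cell with organic osmolytes such as betaine, myo-inositol, taurine and sorbitol, which balance the outside salt without disturbing proteins, and it activates genes of protective chaperones. In fibroblasts the same medium change also acts on matrix production, on growth factor signalling and on immediate early genes, which many kinds of stress switch on quickly.

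The arrays resembled each other, and the knockout label was not borne out by the Nfat5 probe set. Median signal over all 35557 probe sets ranged from 4.87 to 4.91, dim limits from 5.38 to 5.44, and correlations between arrays from 0.979 to 0.989. Signals are given below in the order wild-type isotonic, wild-type hypertonic, knockout-labelled isotonic and knockout-labelled hypertonic. Nfat5 read 7.74, 8.19, 8.03 and 8.24, a difference of responses of -0.24. Its signal was thus no lower in the knockout-labelled cells, and a probe set outside the deleted part would check nothing, so these cells are called knockout-labelled and every direction below rests on the labels. The X-inactivation RNA Xist read 8.99, 9.31, 3.75 and 3.16, a gap between the genotypes in both media that was far wider than its difference of responses of -0.91.

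Fibroblast markers were present on every array, and their summed signal was lowest in the knockout-labelled hypertonic pool. Of 12 such genes 9 were above the dim limit on all arrays, while Dcn, Lum and Fap, which encode decorin, lumican and fibroblast activation protein, were below it on all of them. The summed signal of the 12 was 14.33, 14.47, 14.09 and 13.64 on the log2 scale. Of the 9 kept genes 7 had a difference of responses below 0 and 2 above it, Thy1 (0.92) and Fn1 (0.30). Thy1 was lowest in knockout-labelled isotonic and Fn1 in wild-type hypertonic cells. Markers of some other cell types were sparse: none of 10 endothelial and none of 5 trophoblast genes was above the dim limit on any array, and of 12 macrophage genes Cd68 alone was. Others were partly present, with 6 of 10 epithelial, 5 of 8 neural and Schwann and 3 of 7 chondrocyte and osteoblast genes kept. Sox2, on the neural and Schwann list, was higher in both knockout-labelled pools, at 5.25, 5.35, 8.12 and 8.59. Its difference of responses was 0.37. Smooth muscle markers had a summed signal of 11.83, 12.13, 10.35 and 10.01, lower in both knockout-labelled pools. The part of these marker levels in the results below was not tested. In RNA from whole cultures, fewer cells of a kind and less RNA per cell cannot be told apart.

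The responses differed by at least 2-fold for 732 of the 10542 genes (6.94%). Of these, 583 (5.53%) were negative and 149 (1.41%) were positive, and at 4-fold the counts were 68 and 5. The knockout-labelled response itself passed 2-fold for 360 of the same genes (3.41%), 39 of them higher and 321 lower in hypertonic medium. The wild-type response passed 2-fold for 147 (1.39%), 105 higher and 42 lower. Over all kept genes the median difference was -0.06 with a robust SD of 0.45, against 0.25 for the wild-type and 0.37 for the knockout-labelled response, and 55.5% of genes lay below 0. The share of positive genes among those past 2-fold was 20.4% as deposited, 29.4% after quantile normalization and 27.02% after centring on the median.

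**Figure D1:**
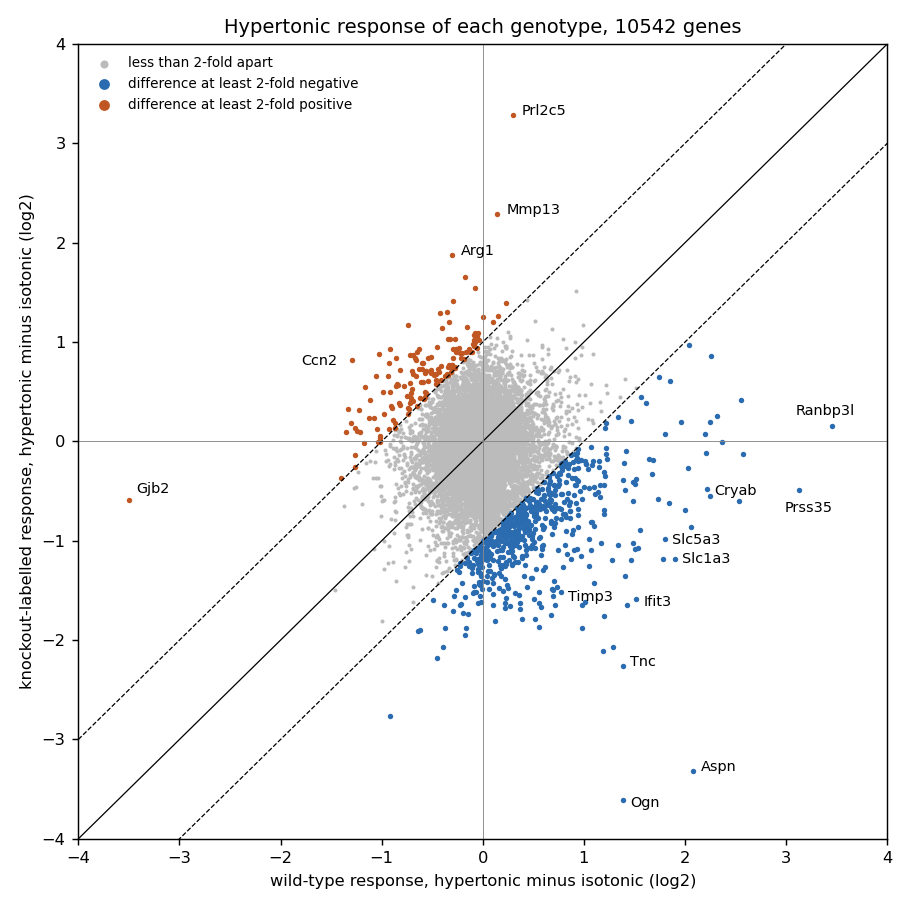
Each point is 1 of the 10542 kept genes, with its wild-type response on the x axis and its knockout-labelled response on the y axis, both as log2 hypertonic minus isotonic signal. The solid line marks equal responses and the dashed lines a 2-fold difference; 583 genes (blue) lie below the lower dashed line and 149 (orange) above the upper one.

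In most of the negative genes the 2 genotypes had responses of opposite sign. Among the 583, the responses had opposite signs in 494 (84.7%), as they had in 48.3% of all kept genes, and a difference of this size favours opposite signs by its construction. The knockout-labelled response was the larger in size in 409 of them (70.2%). It alone passed 2-fold in 217, the wild-type response alone in 69, both did so in opposite directions in 22, and neither did in 275. No gene past 2-fold in its difference had both responses past 2-fold in the same direction. Over all kept genes, 2 did, Slc7a11 and Dhrs9, and their differences of responses were -0.03 and -0.01.

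Of the 149 positive genes, 136 (91.3%) had responses of opposite sign. The wild-type response alone passed 2-fold in 24, the knockout-labelled response alone in 26, and neither in 99 (66.4%). None had both past 2-fold in opposite directions.

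For each gene 1 of the 4 arrays lies farthest from the mean of the other 3, however small the distance. The knockout-labelled hypertonic array had that place, on the low side, for 352 of the 583 negative genes (60.4%); of all kept genes 2635 of 10542 did so. The wild-type hypertonic array was the farthest, on the high side, for 140 (24.0%), against 9.88% of all kept genes. Among positive genes, the knockout-labelled hypertonic array was the farthest and high for 78 of 149 (52.3%), against 15.9% of all kept genes, and the wild-type hypertonic array was the farthest and low for 42 (28.2%), against 14.2% of all kept genes. The sign of a difference fixes by construction the side on which each array can be farthest. The shares of all kept genes mix both signs, so a higher share among negative or positive genes is partly built in. Pools on single arrays give no means to separate the culture from its condition, so the array and the condition cannot be told apart.

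**Figure D2:**
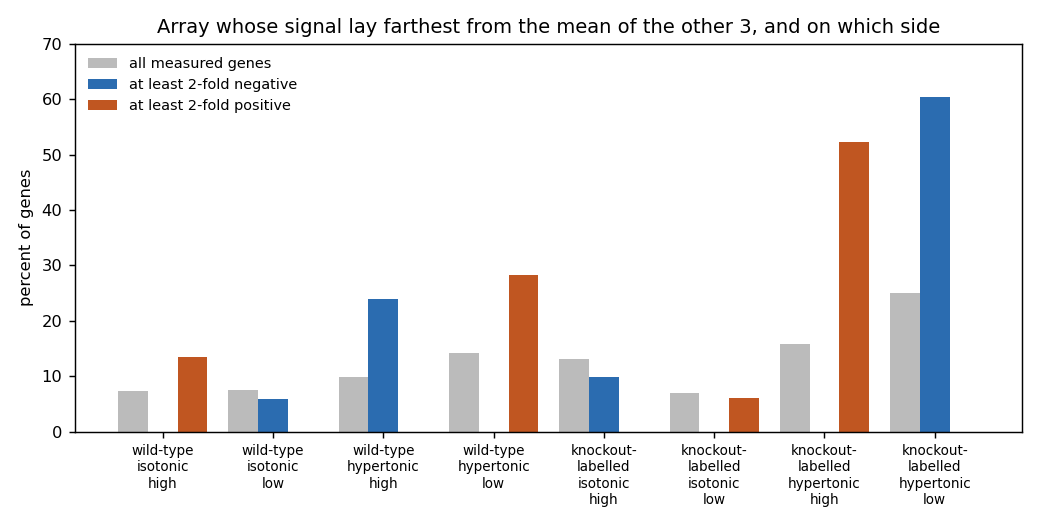
Bars give the percent of genes for which the named array read farthest from the mean of the other 3, above it (high) or below it (low), for all kept genes (grey), negative genes (blue) and positive genes (orange). The knockout-labelled hypertonic array takes 60.4% of the negative genes on its low side and 52.3% of the positive genes on its high side.

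For 496 of the 583 negative genes (85.1%) the isotonic signals of the genotypes lay within 2-fold of each other, a smaller share than the 97.2% of all kept genes. For 351 (60.2%) they did so while the hypertonic signals were at least 2-fold apart, against 7.24% of all kept genes, and a large difference of responses makes such gaps likely by its construction. In 323 (55.4%, against 21.8% of all kept genes) the knockout-labelled signal was the higher in isotonic and the lower in hypertonic medium, in 241 it was the lower in both, and in 19 the higher in both. The converse held for 96 of the 149 positive genes (64.4%, against 16.9% of all kept genes), whose knockout-labelled signal was the lower in isotonic and the higher in hypertonic medium.

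Genes of osmolyte transport, osmolyte synthesis and tonicity differed mainly through a wild-type response that the knockout-labelled cells did not show. Of 28 listed genes, 23 had a single-gene probe set and 22 were kept. Their median difference of responses was -0.30, against -0.06 for all kept genes, with 9 at least 2-fold negative and 2 positive, so 11 of 22 passed 2-fold, against 6.94% of all kept genes. The median wild-type response of the list was 0.31 and the median knockout-labelled response -0.02. Slc6a12, the betaine transporter gene, Slc5a3, the myo-inositol transporter gene, and Aqp1, a water channel gene, were among the 9.

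Slc5a3 read 8.23, 10.03, 7.42 and 6.44. Its signal was highest in wild-type hypertonic cells and lowest in knockout-labelled hypertonic cells, and the difference of responses was -2.78. Aqp1 read 9.20, 10.84, 8.27 and 8.10, a difference of -1.82, with only the wild-type cells higher in hypertonic medium. Slc6a12 read 4.06, 6.38, 3.88 and 4.14, above the dim limit on the wild-type hypertonic array alone, so its difference of -2.06 had to come from that array and was -0.93 with dim signals raised to the dim limit. The promoter of Slc6a12 is shown because a tonicity element, the sequence that NFAT5 binds, has TGGAAA at its core. The table of RefSeq promoters (GRCm38.p6) gives 5 windows for this gene, and the printed stretch is the 250 bases before 1 of its starts, at chr6:121342324-121342573 on the plus strand, with the match in capitals.
Slc6a12: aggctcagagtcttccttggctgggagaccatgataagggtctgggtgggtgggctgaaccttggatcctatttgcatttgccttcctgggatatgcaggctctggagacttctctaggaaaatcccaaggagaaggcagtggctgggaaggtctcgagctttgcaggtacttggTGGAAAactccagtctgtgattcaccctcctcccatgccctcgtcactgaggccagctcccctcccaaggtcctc
The match begins at base -75 from the start, and the stretch also holds an AP-1 site, at -58. Of the 5 windows, a window with the most matches was printed. TGGAAA on either strand was in 17.9% of the windows of the osmolyte list, and the windows of Slc5a3 and Aqp1 held none. It was in 21.8% of the windows of negative genes, 17.4% of those of positive genes and 16.1% of those of all kept genes. Among the interferon-stimulated effector genes described below, TGGAAA was in 34.6% of the windows. It was also in 21.4% of all 32851 windows of 300 bases in the table, so these 6 letters are common and a match is a description only.

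Of the 22 kept genes 18 had a difference below 0, against 55.5% of all kept genes, but the enzyme genes did not shift together. Several lay near 0: Gde1 (-0.13), Pnpla6 (-0.09), Pnpla7 (-0.03), Akr1b8 (0.01) and Impa1 (0.08). Cdo1, which encodes cysteine dioxygenase, the first enzyme of taurine synthesis from cysteine, read 5.67, 8.04, 6.03 and 6.03, a difference of -2.38 that came from the wild-type cells alone. Csad, the next enzyme of that route, had a difference of -0.76. Gpcpd1, which encodes an enzyme that breaks down glycerophosphocholine, read 6.60, 6.91, 6.50 and 5.54. There the low array was the knockout-labelled hypertonic one, and the difference was -1.27. Ranbp3l, a gene named for its likeness to a Ran-binding protein, read 3.31, 6.76, 3.22 and 3.38, dim on every array but one, and its difference of -3.30 was -1.31 with dim signals raised. Atp1b1, a sodium pump subunit gene, differed by -1.23, Slc6a9, a glycine transporter gene, by -1.36, and Hspa4l, a chaperone gene of the HSP110 family, by -1.08.

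The positive pair were Slc6a8, the creatine transporter gene, and Chka, a choline kinase gene. Slc6a8 read 8.05, 7.30, 7.75 and 8.21, and Chka read 7.01, 6.50, 7.48 and 8.17. Both were lower in hypertonic medium in wild-type cells and higher in knockout-labelled cells, with differences of 1.21 and 1.20. The taurine transporter gene Slc6a6 had a difference of -0.30 and the neutral amino acid transporter gene Slc38a2 of -0.19, both short of 2-fold.

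Every kept gene on the list of interferon-stimulated effectors had a lower response in the knockout-labelled cells. Type I interferons act through the receptor chains Ifnar1 and Ifnar2, the kinases Jak1 and Tyk2 and transcription factors such as Irf9, which act at the interferon-stimulated response element of target genes. Of 38 listed effector genes, 35 had a single-gene probe set and 34 were kept. All 34 had a difference of responses below 0, with a median of -1.27, and 23 (67.6%) were at least 2-fold negative, against 5.53% of all kept genes. The wild-type response was above 0 in 34 of 34 and the knockout-labelled response in 2 of 34, with median responses of 0.73 and -0.58. In isotonic medium the knockout-labelled signal was above the wild-type signal for 30 of the 34, and in hypertonic medium it was below for 27. The differences ran from -3.14 to -0.05, and the median lay between -1.27 and -1.18 in the 9 settings used, normalization and the handling of dim genes included.

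**Figure D3:**
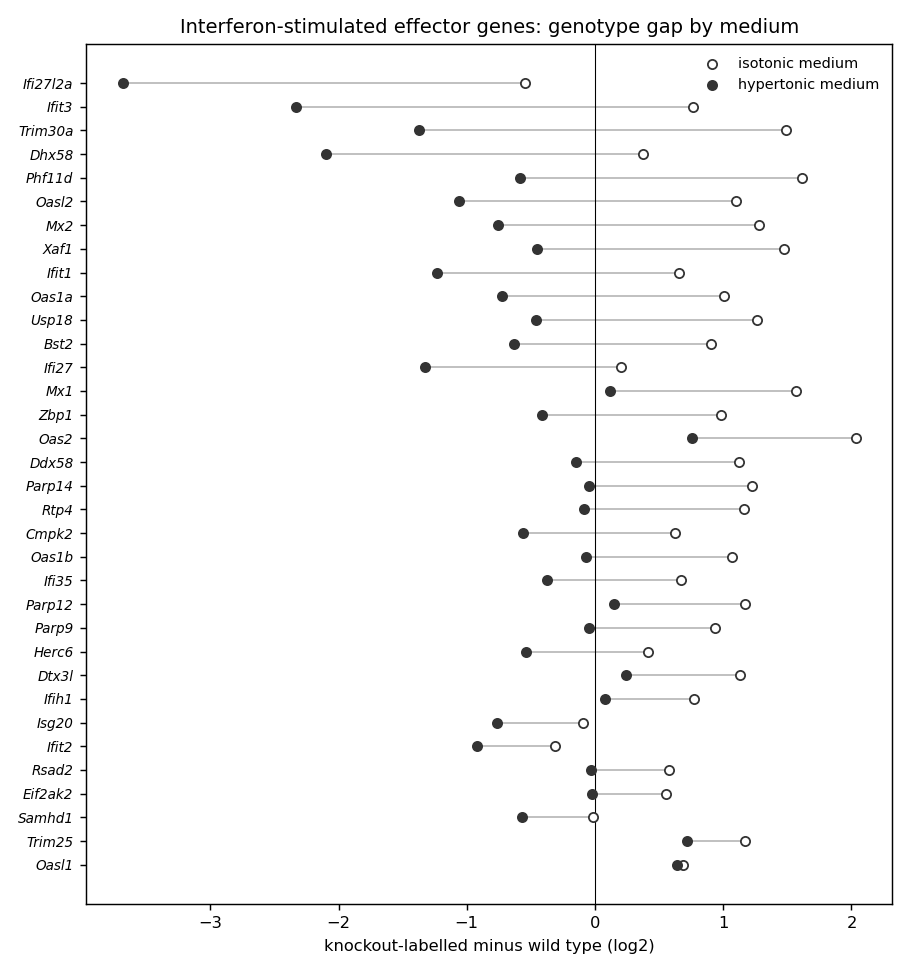
For each of the 34 kept interferon-stimulated effector genes, the x axis gives the knockout-labelled minus the wild-type signal on the log2 scale, in isotonic (open) and hypertonic medium (filled). Open points lie right of 0 for 30 genes and filled points left of it for 27, and every filled point lies left of its open point.

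Promoters of the effector genes Ifit3, Trim30a and Oas1a and of Gbp3, an interferon-induced GTPase gene, are shown because they carry the core of the response element, GAAA, any 2 bases and GAAA on either strand. The printed stretches are the 250 bases before a RefSeq start (GRCm38.p6), with matches in capitals. Ifit3 lies at chr19:34583279-34583528 on the plus strand, Gbp3 at chr3:142559794-142560043 on the plus strand, Trim30a at chr7:104465194-104465443 on the minus strand and Oas1a at chr5:120907526-120907775 on the minus strand.
Ifit3: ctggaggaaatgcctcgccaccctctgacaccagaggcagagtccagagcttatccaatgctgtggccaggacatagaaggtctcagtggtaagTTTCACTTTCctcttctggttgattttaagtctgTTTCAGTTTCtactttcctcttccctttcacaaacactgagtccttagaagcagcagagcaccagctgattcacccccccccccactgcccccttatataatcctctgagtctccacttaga
Gbp3: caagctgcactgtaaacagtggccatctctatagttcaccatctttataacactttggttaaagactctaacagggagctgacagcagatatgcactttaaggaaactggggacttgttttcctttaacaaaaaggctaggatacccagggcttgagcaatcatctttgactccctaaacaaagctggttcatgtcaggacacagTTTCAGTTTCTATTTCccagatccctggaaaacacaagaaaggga
Trim30a: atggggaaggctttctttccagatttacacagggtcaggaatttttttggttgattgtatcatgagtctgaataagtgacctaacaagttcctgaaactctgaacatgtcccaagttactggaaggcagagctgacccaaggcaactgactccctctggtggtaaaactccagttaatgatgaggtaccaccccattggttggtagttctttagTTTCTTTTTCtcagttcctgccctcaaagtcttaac
Oas1a: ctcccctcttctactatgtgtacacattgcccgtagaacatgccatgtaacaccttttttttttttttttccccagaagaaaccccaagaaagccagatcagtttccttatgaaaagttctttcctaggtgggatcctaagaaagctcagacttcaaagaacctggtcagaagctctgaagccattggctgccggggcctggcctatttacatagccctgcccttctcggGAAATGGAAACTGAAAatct
Matches begin at bases -156 and -122 in Ifit3, -45 and -39 in Gbp3, -36 in Trim30a, and -20 and -14 in Oas1a. In Gbp3 and in Oas1a the matches overlap each other, and in Oas1a the capitals also hold TGGAAA. Outside the capitals TGGAAA on either strand is also in Gbp3, at -20, and in Trim30a, at -235, and an AP-1 site is in Ifit3, at -56. The core was in 38.5% of the windows of the effector list, where 22 of the 34 genes had a window. It was in 6.63% of the windows of negative genes, 2.27% of those of positive genes, 2.86% of those of all kept genes and 3.44% of all windows. The 9 effector genes with a match had a median difference of -1.54 and 6 of them passed 2-fold, while the 13 with a window and no match had a median of -0.95 and 6 passed, so genes without the core in this window also had differences mostly well below 0.

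Ifit3, whose protein with its relatives binds foreign RNA, read 7.68, 9.20, 8.44 and 6.86. It was highest in wild-type hypertonic and lowest in knockout-labelled hypertonic cells, and its difference was -3.10. Trim30a, a ubiquitin ligase gene of the TRIM family, read 6.98, 7.96, 8.47 and 6.59. For this gene the knockout-labelled isotonic array was the highest, and the difference was -2.86. Oas1a, one of the 2-prime-5-prime oligoadenylate synthetases that sense double-stranded RNA, read 7.09, 7.92, 8.10 and 7.20, a difference of -1.73. In Oas1a the isotonic gap between genotypes and the hypertonic gap had opposite signs.

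Other effectors with large negative differences were Dhx58 (-2.47), an RNA helicase gene of the RIG-I family, Oasl2 (-2.16), Mx2 (-2.03), an antiviral GTPase gene, Xaf1 (-1.93), Ifit1 (-1.89) and Usp18 (-1.72), whose protein removes ISG15 from other proteins. Bst2, which encodes tetherin, read 10.14, 10.85, 11.04 and 10.22, a difference of -1.53 with all signals well above the dim limit. Ifi27l2a had the lowest difference of the list, -3.14, and was dim on every array but the wild-type hypertonic one. Mx1 and Zbp1 were above the dim limit on the knockout-labelled isotonic array alone, and their differences of -1.45 and -1.39 no longer passed 2-fold with dim signals raised.

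Interferon-induced GTPases, which attack the vacuoles of intracellular microbes, had 5 kept genes of 8 with a single-gene probe set. All 5 were below 0, against 55.5% of all kept genes, and 4 (80.0%) were at least 2-fold negative, against 5.53%. Gbp3 read 7.73, 9.21, 8.69 and 7.67, a difference of -2.51. Gbp7 read 6.96, 7.65, 8.13 and 6.57, a difference of -2.25. These GTPase genes read high in wild-type hypertonic and knockout-labelled isotonic cells. Iigp1 was above the dim limit on the knockout-labelled isotonic array alone, and its difference of -2.52 became 0.01 with dim signals raised. The median of the 5 was -2.25, or -0.96 with dim signals raised.

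Receptors, kinases and transcription factors of the interferon system shifted little as a list. Of 19 kept genes 3 were at least 2-fold negative and none positive (15.8% against 6.94%), and the median of -0.04 was close to that of all kept genes and became 0.08 after quantile normalization. The 3 were Irf7, Irf9 and Tlr3, the last of them a double-stranded RNA receptor gene that was dim on 3 arrays and came to -0.10 with dim signals raised. Irf7, the transcription factor that amplifies interferon production, read 7.27, 8.81, 8.61 and 7.54, a difference of -2.61. Irf9 read 7.41, 8.26, 8.11 and 7.88, a difference of -1.08. Both are themselves induced by interferon. Stat2 had a difference of -0.81, Ifnar2 of -0.85, Ifnar1 of -0.48, Jak1 of 0.04 and Tyk2 of 0.28, and Ifnb1, the gene of interferon beta, was below the dim limit on all arrays, at 2.88, 2.88, 2.91 and 2.63.

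In the presentation of peptides by class I MHC, 12 of 14 kept genes lay below 0, against 55.5% of all kept genes. The median was -0.54, and 2 (14.3%, against 5.53% of all kept genes) were at least 2-fold negative. Tap1, a subunit of the peptide transporter, read 6.48, 6.89, 7.26 and 5.90, a difference of -1.76. Tapbp, which encodes tapasin, differed by -1.01, and this value was short of 2-fold after quantile, loess and median scaling. The immunoproteasome subunit genes Psmb8, Psmb9 and Psmb10 had differences of -0.78, -0.72 and -0.87, while the 32 genes of the constitutive proteasome had a median of -0.14 and none past 2-fold.

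Extracellular matrix genes held the 3 most negative differences, those of Aspn, Ogn and Tnc. Small leucine-rich proteoglycans bind collagen fibrils and growth factors, and Aspn (asporin), Ogn (osteoglycin) and Omd (osteomodulin) lie next to each other among the protein-coding genes of chromosome 13. Aspn read 8.91, 10.995, 7.48 and 4.16. Its difference of -5.40 was the most negative of all kept genes, with a wild-type response of 2.08 and a knockout-labelled response of -3.32. Ogn read 6.92, 8.31, 7.51 and 3.90, a difference of -4.998. On the knockout-labelled hypertonic array both genes were below the dim limit, and with dim signals raised the differences were -4.16 and -3.49. Omd read 4.46, 5.89, 5.70 and 4.05, and its -3.08 shrank to -0.76 with dim signals raised.

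Of 15 genes on that list, 6 were kept, with a median of -2.21 and 4 at least 2-fold negative (66.7% against 5.53% of all kept genes). Fmod, which encodes fibromodulin, read 5.53, 6.75, 4.07 and 3.94, a difference of -1.35, and Bgn, which encodes biglycan, read 11.01, 11.32, 9.91 and 9.76, a difference of -0.46. Only Bgn and Nyx, which encodes nyctalopin, were above the dim limit on all 4 arrays, and the median of those 2 genes was 0.04, so the list's median rests on genes that were dim on at least 1 array.

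**Figure D4:**
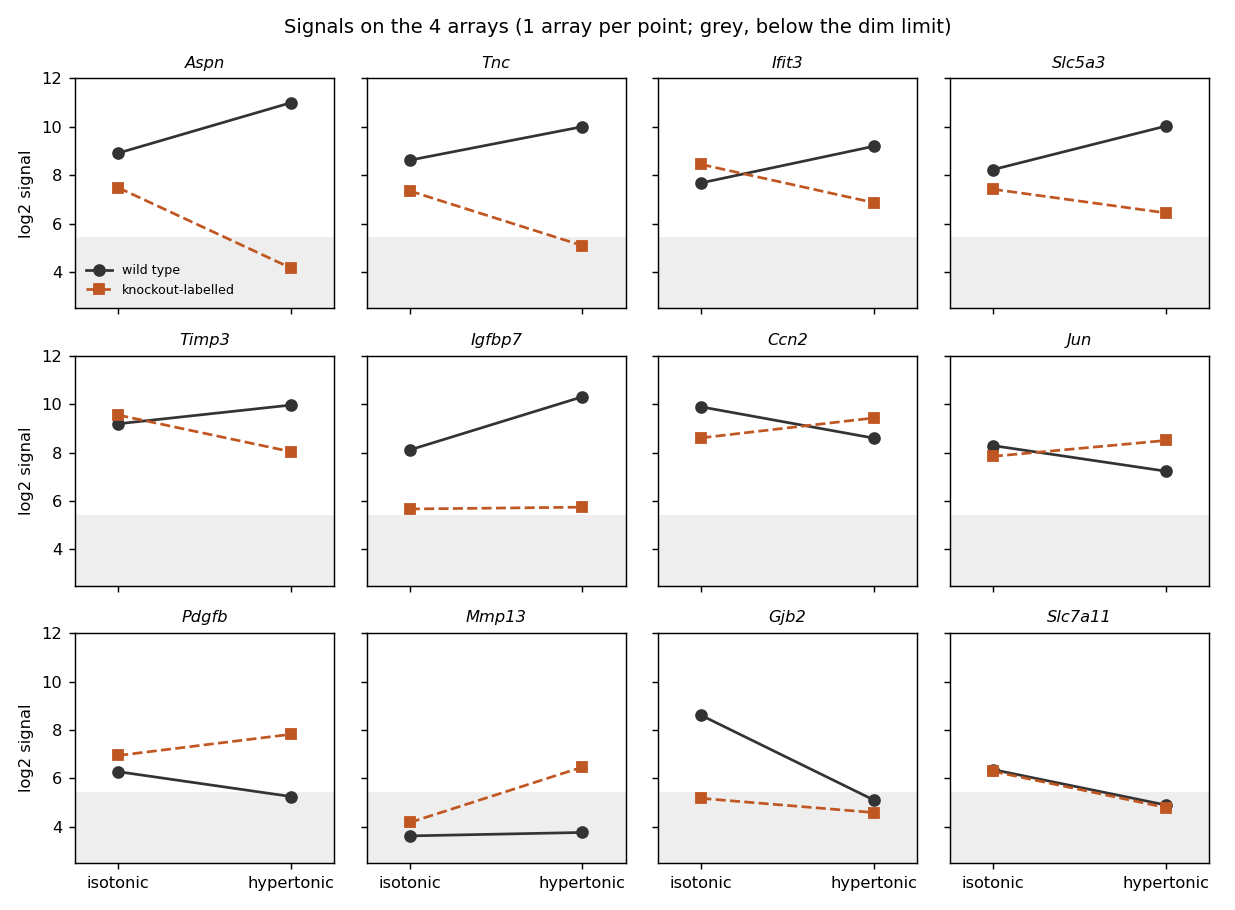
Log2 signals of 12 genes on the 4 arrays, isotonic at left and hypertonic at right, for wild-type (circles, solid line) and knockout-labelled cells (squares, dashed line); the grey band lies below the dim limit. Aspn, Tnc and Slc5a3 diverge in hypertonic medium, Ifit3, Timp3, Ccn2 and Jun cross, and Slc7a11 is low in hypertonic medium in both genotypes.

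Matricellular proteins, which sit in the matrix and signal to cells more than they bear load, split by member. Of 14 kept genes 5 passed 2-fold on the negative and 2 on the positive side. Of all kept genes 5.53% were at least 2-fold negative and 1.41% at least 2-fold positive. The list's median was -0.55, and -0.03 when all dim genes were included. Tnc, which encodes tenascin C, read 8.62, 10.004, 7.35 and 5.09, a difference of -3.65. Postn, which encodes periostin, read 6.66, 7.36, 6.37 and 4.96, a difference of -2.11. In both genes the wild-type cells were higher and the knockout-labelled cells lower in hypertonic medium. Tgfbi (-1.89), Thbs3 (-1.29) and Spon2 (-1.13) were the other negative members. Ccn2, which encodes connective tissue growth factor, went the other way and read 9.89, 8.60, 8.61 and 9.43, a difference of 2.12. Ccn3 read 7.47, 7.39, 7.65 and 8.74, a difference of 1.17 that came from the knockout-labelled hypertonic array.

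Of 28 kept collagen chain genes 4 were at least 2-fold negative (14.3% against 5.53% of all kept genes) and none positive, while 16 of the 28 lay above 0. The median of 0.17 changed sign with the dim rule, to -0.10 among genes above the dim limit on all 4 arrays and -0.80 with a limit at the 75th percentile. Col1a2, a chain of type I collagen, read 12.06, 12.10, 11.88 and 10.68, a difference of -1.24. Col1a1, its partner, read 12.43, 12.57, 11.76 and 10.93, a difference of -0.98. For both chains the knockout-labelled hypertonic array was the low one. Col12a1 (-1.49), Col6a1 (-1.40) and Col3a1 (-1.30) were the other members past 2-fold beside Col1a2, with wild-type responses of 0.85, 0.70 and 0.78.

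Genes for collagen modification, elastic fibres and crosslinking had a median of -0.52, with 27 of 30 kept genes below 0 and 6 at least 2-fold negative (20.0% against 5.53% of all kept genes). Plod2, a lysyl hydroxylase gene needed for collagen crosslinks, read 8.28, 8.71, 8.45 and 7.31, a difference of -1.57. Lox, the lysyl oxidase gene, read 9.71, 9.21, 9.24 and 7.65, lower in hypertonic medium in both genotypes, with a difference of -1.10. Mfap5 (-1.45), Crtap (-1.20), Emilin1 (-1.17) and Fbln5 (-1.05), genes of microfibrils, prolyl hydroxylation and elastic fibres, were the others. Among 12 basement membrane genes the laminin chain genes Lama4 and Lamb1 lay at opposite ends. Lama4 read 7.05, 7.26, 5.54 and 3.91, a difference of -1.84 that was -0.35 with dim signals raised, and Lamb1 read 8.54, 7.61, 8.45 and 9.24 (1.71).

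Proteases of the matrix and their inhibitors contributed to both directions. Of 22 kept genes 4 passed 2-fold on the negative and 3 on the positive side (31.8% against 6.94% of all kept genes). Timp3, which encodes a matrix-bound inhibitor of metalloproteinases, read 9.19, 9.96, 9.55 and 8.04, a difference of -2.29 with all signals above the dim limit. Mmp13, a collagenase gene, read 3.62, 3.76, 4.17 and 6.46, and Mmp10, a stromelysin gene, read 4.36, 4.19, 4.39 and 6.05. Both were above the dim limit on the knockout-labelled hypertonic array alone, and their differences of 2.15 and 1.83 were 1.07 and 0.66 with dim signals raised. Plaur, which encodes the urokinase receptor, read 7.58, 6.60, 6.64 and 7.13, a difference of 1.4827. The negative members besides Timp3 were the aggrecan-cleaving protease gene Adamts5 (-1.27), Adamts6 (-1.26) and Plat (-1.12), the tissue plasminogen activator gene. The list's median was -0.38, and 0.05 when all dim genes were included.

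The promoters of Mmp13, Mmp10 and Plaur are shown because each holds an AP-1 site, TGANTCA on either strand, which binds dimers of Jun and Fos proteins. The stretches are the 250 bases before a RefSeq start (GRCm38.p6), all on the plus strand, with the site in capitals. Mmp13 lies at chr9:7272264-7272513, Mmp10 at chr9:7502092-7502341 and Plaur at chr7:24462233-24462482.
Mmp13: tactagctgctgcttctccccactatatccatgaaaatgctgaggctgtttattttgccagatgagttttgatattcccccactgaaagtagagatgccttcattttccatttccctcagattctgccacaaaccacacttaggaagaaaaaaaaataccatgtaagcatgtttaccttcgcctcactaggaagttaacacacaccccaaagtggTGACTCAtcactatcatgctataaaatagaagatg
Mmp10: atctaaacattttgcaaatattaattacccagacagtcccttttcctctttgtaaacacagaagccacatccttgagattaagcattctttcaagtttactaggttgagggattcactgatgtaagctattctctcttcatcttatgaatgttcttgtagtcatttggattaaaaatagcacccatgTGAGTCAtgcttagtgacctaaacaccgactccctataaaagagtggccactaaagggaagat
Plaur: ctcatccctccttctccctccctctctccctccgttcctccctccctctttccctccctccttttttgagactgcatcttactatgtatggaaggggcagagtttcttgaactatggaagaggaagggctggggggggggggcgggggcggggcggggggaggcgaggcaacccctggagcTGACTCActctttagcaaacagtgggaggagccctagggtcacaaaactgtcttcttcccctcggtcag
The sites begin at bases -35, -63 and -69. The Mmp13 stretch also holds the interferon response element core and TGGAAA, both from base -146. TGANTCA was in 9.09% of the windows of positive genes, 6.28% of those of negative genes, 4.73% of those of all kept genes and 7.81% of all windows. The site was also in 19.2% of the windows of the interferon-stimulated effectors, whose differences were all below 0. It was in 0.0% of those of the AP-1 and immediate early list described next. The 3 genes were chosen for printing after their values and matches were seen.

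AP-1 and immediate early genes leaned positive. Of 29 listed genes 26 were kept, 23 of them above 0, with a median of 0.57, 6 at least 2-fold positive (23.1% against 1.41%) and none negative. The median wild-type response was -0.28 and the median knockout-labelled response 0.28. Jun, the AP-1 subunit gene, read 8.29, 7.23, 7.84 and 8.50, a difference of 1.71. Fosl1, which encodes the Fos-related partner Fra-1, read 6.54, 6.01, 5.97 and 6.81, a difference of 1.38. Atf3, a stress-induced repressor of the same bZIP class, read 6.83, 5.70, 6.397 and 6.64, a difference of 1.37. In each of the 3 the wild-type cells were lower in hypertonic medium and the knockout-labelled cells higher. Maff (1.566, or 1.04 with dim signals raised), Ier5 (1.36) and Myc (1.09) were the other positive members, while Fos read 5.43, 5.41, 5.11 and 5.70, a difference of 0.61 at signals close to the dim limit, and Egr1 had a difference of -0.16.

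Outputs and feedback genes of the ERK pathway leaned the same way, with 15 of 17 kept genes above 0, a median of 0.43 and 4 at least 2-fold positive (23.5% against 1.41% of all kept genes). With dim signals raised 2 of the 4 were short of 2-fold, Dusp4 at 0.17 and Etv5 at 0.94. These were Etv4 and Etv5, ETS transcription factor genes switched on by growth factor signalling, the phosphatase gene Dusp4, and Fosl1, which is also on the previous list. Etv4 read 5.78, 5.04, 5.42 and 6.59, a difference of 1.91, and was dim on the wild-type hypertonic array. Etv5 had a difference of 1.59, and its other probe set gave 0.78. Dusp6, the phosphatase gene that marks ERK activity, had a difference of 0.86. Among 26 targets and components of the YAP/TEAD pathway the median was 0.04, with Ccn2 positive and Tgfb2 negative, at -1.08, or -0.65 with dim signals raised. These 2 were 7.69% of the list, against 6.94% of all kept genes. Ankrd1, another target, read 7.95, 6.72, 5.93 and 5.62, a difference of 0.93. Contractile and SRF target genes had 1 of 18 kept genes past 2-fold (5.56% against 6.94% of all kept genes) and a median of -0.27. It was Myl9, a myosin light chain gene, at 7.51, 8.48, 7.12 and 5.96, a difference of -2.13. Acta2, the smooth muscle actin gene, was just short of the limit.

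Secreted signals and their receptors included genes of both directions. Among 27 kept growth factor ligand genes 3 lay past 2-fold on the negative and 2 on the positive side (18.5% against 6.94% of all kept genes). Vegfd, a lymphangiogenic factor gene, read 8.46, 9.13, 8.27 and 6.52, a difference of -2.42. Fgf10, a mesenchymal factor gene, read 5.75, 7.43, 4.27 and 3.95, a difference of -2.001 that came from the wild-type cells. Pdgfb read 6.27, 5.25, 6.94 and 7.82, a difference of 1.90, and Hbegf, an EGF receptor ligand gene, read 7.69, 6.61, 6.89 and 7.13, a difference of 1.31. Both positive ligands were lower in hypertonic medium in the wild-type cells.

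Of 33 kept receptor genes 5 were past 2-fold, all negative (15.2% against 5.53% of all kept genes). Osmr and Lifr, the receptor genes for oncostatin M and leukaemia inhibitory factor, are neighbours on chromosome 15. Osmr read 7.75, 7.38, 7.58 and 5.70 (-1.51), and Lifr read 6.71, 6.71, 7.81 and 6.33 (-1.48). For Osmr the knockout-labelled hypertonic array was the low one, while Lifr was high on the knockout-labelled isotonic array. Fgfr2 (-1.56), Tgfbr3 (-1.25) and Pdgfra (-1.23) completed the 5.

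Some insulin-like growth factor binding protein genes and Id genes, which BMP signalling induces, differed and others did not. Igfbp5 read 6.42, 8.66, 4.41 and 3.85, a difference of -2.80, and was dim on both knockout-labelled arrays. Igfbp7 read 8.11, 10.31, 5.67 and 5.74, a difference of -2.12. For Igfbp7 the knockout-labelled pools lay within 0.07 of each other. Id3 read 7.22, 8.74, 9.38 and 9.01 (-1.90), Id2 read 7.54, 8.92, 8.73 and 8.34 (-1.78) and Id1 had a difference of -1.21. Igfbp2 (-0.01), Igfbp4 (0.06), Igfbp6 (-0.02) and Id4 (0.38) had differences short of 2-fold. Id1, Id2 and Id3 were higher in knockout-labelled than in wild-type cells in isotonic medium. With Sfrp2 (-1.39), a WNT antagonist gene, 6 of the 22 kept genes of this list were at least 2-fold negative (27.3% against 5.53% of all kept genes) and none positive. The median of -0.02 became 0.04 after centring on the median.

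Chemokines, cytokines and prostaglandin enzymes had 8 negative and 1 positive gene among 22 kept of 50 with a single-gene probe set (40.9% against 6.94% of all kept genes). Their median was 0.08, and -0.35 with the dim limit at the 75th percentile. Ptx3, which encodes the soluble pattern receptor pentraxin 3, read 8.37, 7.92, 7.72 and 5.54, a difference of -1.73. Cxcl12, a stromal chemokine gene, read 8.73, 9.01, 8.48 and 7.39, a difference of -1.37. For both genes the knockout-labelled hypertonic array stood low. Il15, Serping1, Cxcl5 and C1s1 had differences from -2.29 to -1.66, were each dim on at least 2 arrays and no longer passed 2-fold with dim signals raised, at -0.16, -0.46, -0.56 and -0.53. Cxcl16 (1.15) was the positive member. Guidance genes had Sema3d (-1.85), Nrp2 (-1.81), a semaphorin and VEGF co-receptor gene, and Sema3c (-1.56) as negative members and the ephrin gene Efnb2 (1.16) as the positive one, among 35. These were 11.4% of the guidance list, against 6.94% of all kept genes.

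Targets of p53 split. Of 29 kept genes 3 passed 2-fold on each side (20.7% against 6.94% of all kept genes), with a median of 0.38. Sesn1, a sestrin gene, read 7.45, 8.96, 7.55 and 7.12, a difference of -1.94. Ccng1, a cyclin G gene, read 9.60, 9.14, 9.91 and 10.60, a difference of 1.15. Thus one was highest in wild-type hypertonic and the other in knockout-labelled hypertonic cells. Ddit4l (-2.05) and Ddb2 (-1.03) were negative and Aen (1.41) and Plk3 (1.38) positive.

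Cell cycle genes showed little difference of responses. Among 46 G1/S and DNA replication genes 1 was at least 2-fold negative, the inhibitor gene Cdkn2b (-1.20), and 1 positive, Ccnd2 (1.03). Together they were 4.35% of the list, against 6.94% of all kept genes. Of 41 G2/M and mitosis genes none passed 2-fold, and their median was -0.15. Ccnd2, a D-type cyclin gene, read 10.49, 9.08, 9.23 and 8.86, and the value arose from its high wild-type isotonic signal.

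Genes of ribosome biogenesis leaned positive by a small amount in nearly every member. Of 43 kept genes 41 were above 0, with a median of 0.44, though only 3 passed 2-fold (6.98% against 1.41% of all kept genes). The median response was -0.58 in wild-type and -0.10 in knockout-labelled cells. Gnl3, which encodes nucleostemin, read 9.001, 8.02, 8.83 and 9.11, a difference of 1.26. Nop2, an rRNA methyltransferase gene, read 8.41, 7.70, 7.98 and 8.42, a difference of 1.15. Rrp12 read 7.96, 6.70, 7.46 and 7.21 and had a difference of 1.01. The wild-type hypertonic array was the low one in all 3. The E-box CACGTG, the letters that MYC binds, was in 21.1% of the windows of this list, 12.9% of those of positive genes, 5.41% of those of negative genes and 10.4% of those of all kept genes. A high share was not particular to this list, since the E-box was in 27.3% of the windows of AP-1 and immediate early genes.

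Amino acid stress genes controlled by ATF4 had similar median responses in the 2 genotypes. The median response of 42 kept genes was -0.40 in wild-type and -0.37 in knockout-labelled cells, and the median difference was 0.02 with 2 genes past 2-fold in each direction. Genes past 2-fold were 9.52% of the list, against 6.94% of all kept genes. Slc7a11, the cystine transporter gene, read 6.36, 4.897, 6.29 and 4.79. Its hypertonic signals lay below the dim limit in both genotypes. The members past 2-fold were Slc6a9 (-1.36) and Ddit4 (-1.21), and Atf3 (1.37) and Slc7a1 (1.16), a cationic amino acid transporter gene. With no replicate these near-equal medians do not show that the responses were the same.

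Metabolic lists shifted in small steps. Glycolysis and hypoxia genes had a median of -0.49 over 38 kept genes, with 29 below 0. Of the 38, 5 were at least 2-fold negative and 1 positive (15.8% against 6.94% of all kept genes). Pdk1, which encodes a kinase that restrains pyruvate oxidation, read 6.73, 6.33, 7.48 and 5.41, a difference of -1.67. Hif1a, the hypoxia-inducible factor gene, read 9.56, 10.46, 9.10 and 8.82, a difference of -1.18. Pfkm (-1.45), Ddit4 and Adm (-1.13) were the other negative members and Hk2 (1.13), a hexokinase gene, the positive one. Adm was -0.08 with dim signals raised. Oxidative phosphorylation subunits had 33 of 42 genes below 0 and a median of -0.28, and none passed 2-fold. Of 21 cholesterol synthesis genes 1 passed (4.76% against 6.94% of all kept genes). It was Tm7sf2, a sterol reductase gene, at 7.40, 8.09, 7.21 and 5.72 and a difference of -2.18.

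Defence and chaperone lists had shares past 2-fold, 9.68% and 8.33%, close to the 6.94% of all kept genes. Nqo1, a quinone reductase gene of the NRF2 response, read 7.25, 8.08, 6.71 and 5.57, a difference of -1.97. Among 31 genes of that list Cdo1 and Gstm1 (-1.01) were the other members past 2-fold, all negative, and the median was -0.10. Cryab, which encodes the small heat shock protein alphaB-crystallin, read 7.46, 9.68, 6.30 and 5.82, a difference of -2.70. Cryab and Hspa4l were the members past 2-fold among 24 chaperone genes, whose median was 0.07. Endoplasmic reticulum genes had a median of -0.22 over 35 genes with 1 past 2-fold, Edem2 (-1.08), and lysosome and autophagy genes 0.06 over 35 with Galns (-1.36) alone. For each of these lists the share past 2-fold was 2.86%, below that of all kept genes. Of 16 clock genes and 14 housekeeping genes none passed 2-fold, and their medians were 0.15 and -0.03, the latter of which became 0.02 after quantile normalization.

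Ion channel, pump and volume regulation genes divided between the directions. Kcnj2, an inward rectifier potassium channel gene, read 3.78, 5.99, 3.46 and 3.34, above the dim limit in wild-type hypertonic cells alone, and its difference of -2.33 was -0.54 with dim signals raised. Fxyd5, a sodium pump regulator gene, read 8.16, 7.05, 7.91 and 8.32, a difference of 1.53, and Kcnn4, a calcium-activated potassium channel gene, read 7.46, 6.75, 6.76 and 7.24, a difference of 1.20. Both were lower in hypertonic than in isotonic medium in the wild-type cells alone. With Aqp1 and Atp1b1, which are also on the osmolyte list, 3 of the 27 kept genes were past 2-fold on the negative side and these 2 on the positive side. Together they were 18.5% of the list, against 6.94% of all kept genes. Integrins and focal adhesion genes had a median of -0.11. Of 23 genes 2 passed 2-fold (8.70%, close to the 6.94% of all kept genes), Tln2 (-1.37) and Itga11 (-1.09, or -0.79 with dim signals raised).

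**Figure D5:**
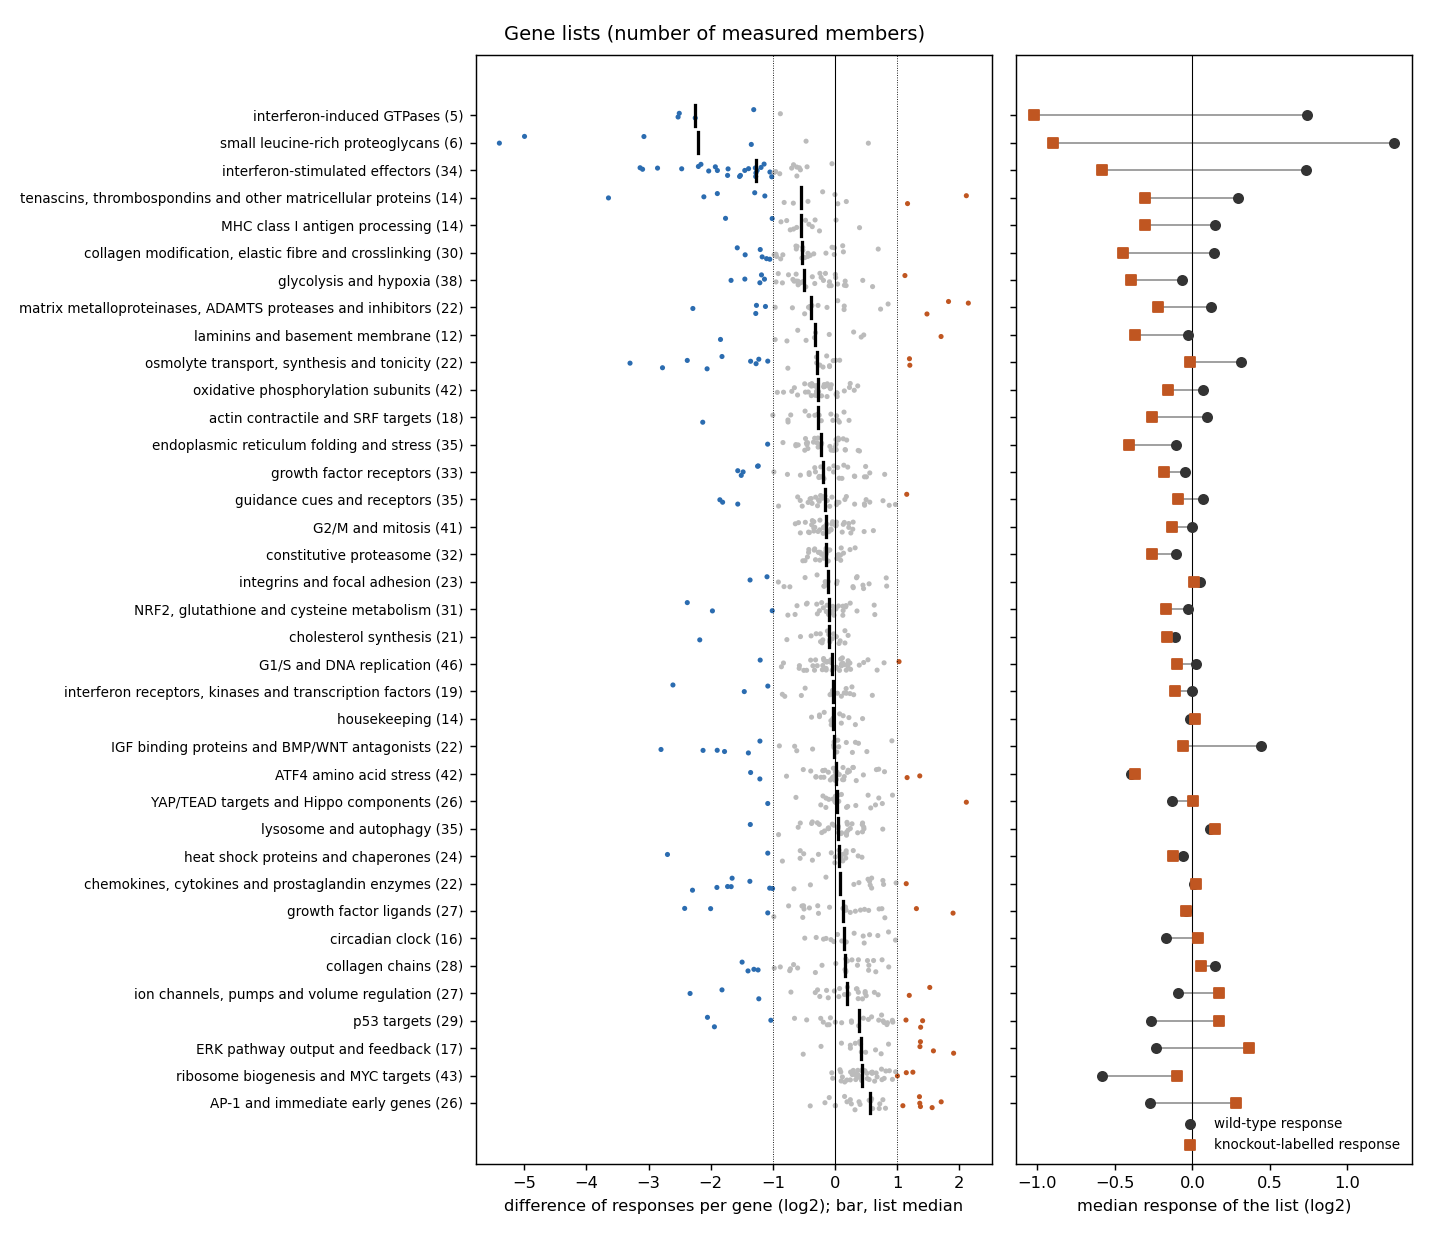
Left, the difference of responses of each kept gene (points, log2) in 37 gene lists ordered by their median (bar), with blue at least 2-fold negative and orange at least 2-fold positive; right, the median wild-type (circles) and knockout-labelled (squares) response of each list. Interferon-induced GTPases, small leucine-rich proteoglycans and interferon-stimulated effectors have the lowest medians, -2.25, -2.21 and -1.27 (the second is 0.04 over the 2 genes above the dim limit on all arrays), and AP-1 and immediate early genes the highest, 0.57.

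Several of the extreme genes were on no list. Prss35, a gene of the serine protease family, read 4.74, 7.87, 4.93 and 4.44, a difference of -3.62 seen against dim signals on the other arrays. Slc1a3, a glutamate transporter gene, read 6.43, 8.33, 5.62 and 4.43, a difference of -3.09. Nrep read 7.43, 9.21, 7.03 and 5.85, a difference of -2.97, and Olfml3, which encodes a secreted olfactomedin-like protein, read 8.38, 9.78, 8.08 and 6.73, a difference of -2.76. These negative genes shared high signals in wild-type hypertonic cells. Apod, a lipocalin gene, differed by -2.92 and Itm2a by -2.70.

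At the positive end, Prl2c5, a gene of the prolactin family, read 2.77, 3.07, 3.001 and 6.29, a difference of 2.996 that was 0.90 with dim signals raised. Prl2c genes have near-identical copies, so a probe set may not tell them apart. Gjb2, which encodes connexin 26, read 8.60, 5.10, 5.17 and 4.58. Its difference of 2.91 came from the wild-type isotonic array, the one array on which it was above the dim limit. Arg1, an arginase gene, read 4.37, 4.06, 4.86 and 6.73 (2.17, or 1.34 with dim signals raised), and Tnfrsf12a, the receptor gene for TWEAK, read 9.27, 8.11, 8.92 and 9.47 (1.71). Cgn, a tight junction gene, read 6.83, 5.92, 7.04 and 7.97, a difference of 1.85. Of these positive genes Cgn and Tnfrsf12a were above the dim limit on all arrays.

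Some of these genes lie side by side. Counting protein-coding RefSeq genes that adjoin each other and were past 2-fold in the same direction, there were 30 negative runs with 64 genes in all and 1 positive run, Fam110c and Lamb1. The 4 runs of 3 genes were Aspn, Omd and Ogn on chromosome 13, Slc1a3, Ranbp3l and Nadk2 on chromosome 15, Cep41, Mest and Copg2 on chromosome 6, and Cbr4, Palld and Ddx60 on chromosome 8. With dim signals raised Omd and Cep41, at -0.76 and -0.66, were short of 2-fold. In the chromosome 15 run Nadk2, a mitochondrial NAD kinase gene, read 7.83, 9.63, 7.61 and 7.68, a difference of -1.73 from the wild-type cells. Pairs included Gbp7 with Gbp3, Ifi27l2a with Ifi27, Osmr with Lifr, and Txnip with Polr3gl. Txnip, which encodes a glucose-regulated inhibitor of thioredoxin, read 7.65, 8.203, 7.54 and 5.92, a difference of -2.18. How many runs a list of this length would hold by its size alone was not tested.

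Measurement error within the arrays could be gauged in part. Among 477 genes with 2 measured probe sets, the differences of responses of the probe sets varied with an SD of 0.23 per probe set, and of the 23 genes past 2-fold with another measured probe set, all 23 had the same sign in it and 15 passed 2-fold. Socs2 (-1.62 against -0.09) and Igsf10 (-2.30 against a mean of -1.32) were the furthest apart of these. Probe sets of a gene share the RNA pool, so this spread holds no variation between cultures. Near the limits of the choice, Pax1, Srrm3 and Srcin1 were the kept genes closest to the dim limit, and Tssk4, Cend1 and Asb7 the closest left out. The differences just past 2-fold were those of Cnpy2 (-1.001), Fzd1 (-1.003), Gpt (1.002) and Rrp12 (1.007). Just short of it were Pts (-0.9992) and Acta2, and Jag2 (0.9994) and Nol4 (0.999).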

How the data were processed

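RNA from mouse embryonic fibroblasts, pooled from 4 samples per group, was read on 4 arrays, 1 per group. The authors deposited log2 values per probe set, which per the file headers carry no statement of scale; the range of the values gave the scale. MAS5 is named, without a version, in the submitters' processing notes. Background correction, any normalization between arrays and the array image files were not analysed here, so a gain that differs between arrays would enter each difference.

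Gene names came from the platform's annotation: of 35557 probe sets, 21789 had 1 gene, 1621 several and 12147 none, and 19856 of the 19938 genes matched RefSeq. From the deposited log2 values the difference of responses was computed in Python 3.11.15 with pandas 2.3.3 and numpy 2.4.6, with figures from matplotlib 3.10.9. A 2-fold limit stands in for a test. Alternatives were quantile and cyclic loess normalization (R 4.3.3, limma 3.58.1), centring on the median, other dim limits, dim signals raised to the dim limit, averaging the probe sets of a gene, and a 1.5-fold limit. Scripts were tested on simulated data. Named genes were Nfat5, the 20 most negative and 20 most positive differences past 2-fold (provisional symbols left out), the 10 with the most opposed responses, the members of each list past 2-fold and its 4 largest differences, and neighbouring genes past 2-fold. Other genes named, such as receptors, markers and members near 0, were chosen after their values were seen. The members and lists were chosen with earlier results of these data known.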

Additional observations from a re-analysis of the deposited data

Results flagged for a closer look

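In 22 genes the wild-type cells went one way and the knockout-labelled cells the other, with both responses past 2-fold. Each genotype has 1 array per condition, so the difference between genotypes was not tested. The differences of responses were -5.40 for Aspn, -5.0 for Ogn, -3.65 for Tnc, -3.08 for Omd, -2.76 for Olfml3 and -2.30 for Igsf10, genes of matrix or secreted proteins. Among interferon-stimulated genes they were -3.10 for Ifit3, -2.95 for Ddx60, -2.66 for Ifit3b, -2.63 for Ifi203, -2.61 for Irf7, -2.59 for Lgals3bp, -2.52 for Iigp1, -2.51 for Gbp3, -2.47 for Dhx58 and -2.16 for Oasl2. The others were Zfp931 at -3.36, Enpp3 at -3.29, Slc1a3 at -3.09, Nrep at -2.97, Cped1 at -2.38 and Thra at -2.19. With dim signals raised to the dim limit, Zfp931 came to -0.14, Omd to -0.76, Enpp3 to -1.52 and Iigp1 to 0.007.

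Probe sets with no single gene in the annotation were not used above. Of 5379 such probe sets above the dim limit, 675 had responses that differed by at least 2-fold, 431 negative and 244 positive. Among the 10542 kept genes the counts were 732, 583 and 149. A larger share of these probe sets thus passed 2-fold, and a larger part of those passing was positive.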

How the results depend on the processing

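No paired analysis was possible because each group has 1 array. The count of negative genes was 583, and 270 with the dim limit at the 75th percentile and 1624 at 1.5-fold. The count of positive genes was 149, and 246 with no limit on dim genes, 68 at the 75th percentile, 97 among genes above the dim limit on all 4 arrays and 818 at 1.5-fold; these settings test other numbers of genes or use another limit by construction. Quantile normalization gave 492 negative and 205 positive genes, and 637 of the 732 genes were still past 2-fold; the cause was not tested. Among list medians at least 0.234 in size, the SD per probe set, 2 changed sign. That of the small leucine-rich proteoglycans was 0.037 over 2 genes above the dim limit on all arrays. That of the matrix proteases was 0.046 over 35 genes with no dim limit. Smaller medians that changed sign under at least 1 setting were those of collagen chains, chemokines, G1/S genes, housekeeping genes, interferon receptors and IGF binding proteins. Iigp1 reversed to 0.007 with dim signals raised, since it was dim on 3 arrays. Of 207 named genes past 2-fold, 191 were still past it after quantile normalization, 195 after centring, 201 after loess and 177 with dim signals raised. Signal near the dim limit and 1 array per group limit every value.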

Other observations

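Gene families read by symbol, chosen after their values were seen, held further one-sided groups. Intraflagellar transport genes, whose proteins carry cargo along cilia, had 14 of 14 kept genes below 0, with a median difference of responses of -0.75, a median wild-type response of 0.40 and a median knockout-labelled response of -0.42. Ift52 read 7.77, 8.17, 7.85 and 6.85, in the order of arrays used above, a difference of -1.40. Ift172 (-1.25), Ift81 (-1.18), Ift122 (-1.07) and Ift88 (-1.05) were the other members past 2-fold. With Ift52 these made 5 of 14 genes (35.7%), while 5.53% of all kept genes were at least 2-fold negative and 55.5% lay below 0. The 6 Bbs genes, also of cilia, had a median of -0.33 and none past 2-fold. All 5 kept acyl-CoA dehydrogenase genes and all 4 kept protocadherin beta genes were below 0 as well.

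Dual-specificity phosphatase genes had a median of 0.41 over 17 genes. Dusp4 (1.37, or 0.17 with dim signals raised), Dusp8 (1.26), Dusp3 (1.18) and Dusp14 (1.10) were at least 2-fold positive (23.5% against 1.41% of all kept genes). Cytosolic ribosomal protein genes had a median of -0.02 over 53 genes, none of them past 2-fold. Mitochondrial ribosomal protein genes had a median of -0.17 over 77 genes, 2 of them at least 2-fold negative (2.60% against 5.53% of all kept genes).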
